A study of Mus musculus with 32 samples.

Results

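Of the 10055 genes that appeared in any of 4 organ tables of a study of ketohexokinase deletion, 2856 appeared in both the liver table and the ileum table, and their levels in wild-type (WT) liver and WT ileum are compared here. A gene was listed for an organ where the authors' own test of knockout against WT there had given a p below 0.05 before adjustment. The shared genes made up 44.8% of the 6375 genes of the liver table and 55.1% of the 5187 genes of the ileum table, and 2647 of them were protein-coding. The genes were therefore chosen on genotype within each organ, with the same WT libraries on one side of that choice, and not on the organ difference itself. Many of the best known genes of either organ, albumin among them, were not among them.

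The study set male mice without Khk (Khk KO) against male WT mice to ask how fructose and ketohexokinase act on iron homeostasis. Its 32 libraries were made from polyadenylated RNA of the liver and 3 stretches of small intestine (duodenum, jejunum, ileum), 4 for each organ and genotype. The 8 libraries used here are those of WT liver and WT ileum, 4 of each, and no knockout library entered. Strain, age and diet are not given in the sources used here, and the labels do not say whether liver and ileum libraries of the same number came from the same mouse. The p-values below measure the spread between these libraries, and organ cannot be told apart from any difference in how the libraries of each organ were made.

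The liver and the ileum handle what is absorbed from food in sequence. The absorptive cells of the ileum break down and take up the last nutrients behind a brush border and a mucus layer made by goblet cells, with plasma cells beneath that secrete immunoglobulin A. Blood from the gut then reaches hepatocytes, which take up sugars, amino acids and iron, make urea and bile acids, conjugate foreign compounds, and secrete most proteins of the plasma. Ketohexokinase, the enzyme encoded by Khk, phosphorylates fructose and is found in both organs. In whole tissue, fewer cells of a type and less RNA per cell cannot be told apart.

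The shared genes took 4007376 to 6721007 reads per liver library and 4520301 to 5369217 reads per ileum library. Levels are given as counts per 1000000 reads (CPM), with a library's scaled total over the shared genes alone as the base, so they run higher than CPM of a whole library would. Replicates differed by more than counting error, with a chi-square per degree of freedom of 12.8 to 261 between pairs of liver libraries and 19.8 to 131 between pairs of ileum libraries. Liver library 1 and ileum library 1 stood furthest from the others of their organ. In liver library 1 long genes were high for the organ, by 0.29 on the log2 scale per doubling of length, and in liver library 3 and ileum library 1 they were low, by -0.24 and -0.18. The other 5 libraries had slopes of -0.05 to 0.12. Values are listed below in the order of libraries 1 to 4.

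With the main scaling, most of the tested genes lay within 2-fold between the organs, though most were also called different, and a minority differed widely. The median log2 difference, liver minus ileum, was -0.12, and 1702 of the 2770 genes tested (61.4%) lay within 2-fold. At an adjusted p under 0.05 (edgeR's quasi-likelihood F test, Benjamini-Hochberg adjustment over all genes tested, as for every adjusted p below), 1570 genes (56.7%) were called. Of these, 724 (26.1% of genes tested) were higher in liver and 846 (30.5%) were higher in ileum. With a difference of at least 4-fold as well, 437 genes (15.8%) were called, of which 186 genes (6.71%) were higher in liver and 251 (9.06%) were higher in ileum. The 4 and 4 values of 1416 genes (51.1%) did not overlap. Counts of list members below are to be read beside these shares. The split between the organs moved with the scaling. The share of calls that were higher in liver was 46.1% with the main scaling (TMM), 60.4% with library totals implied by the deposited FPKM values, and 27.8% with the plain sums of the shared genes. Those settings moved the median by 0.27 and by -0.41, so differences of that size are relative to the other shared genes.

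**Figure D1:**
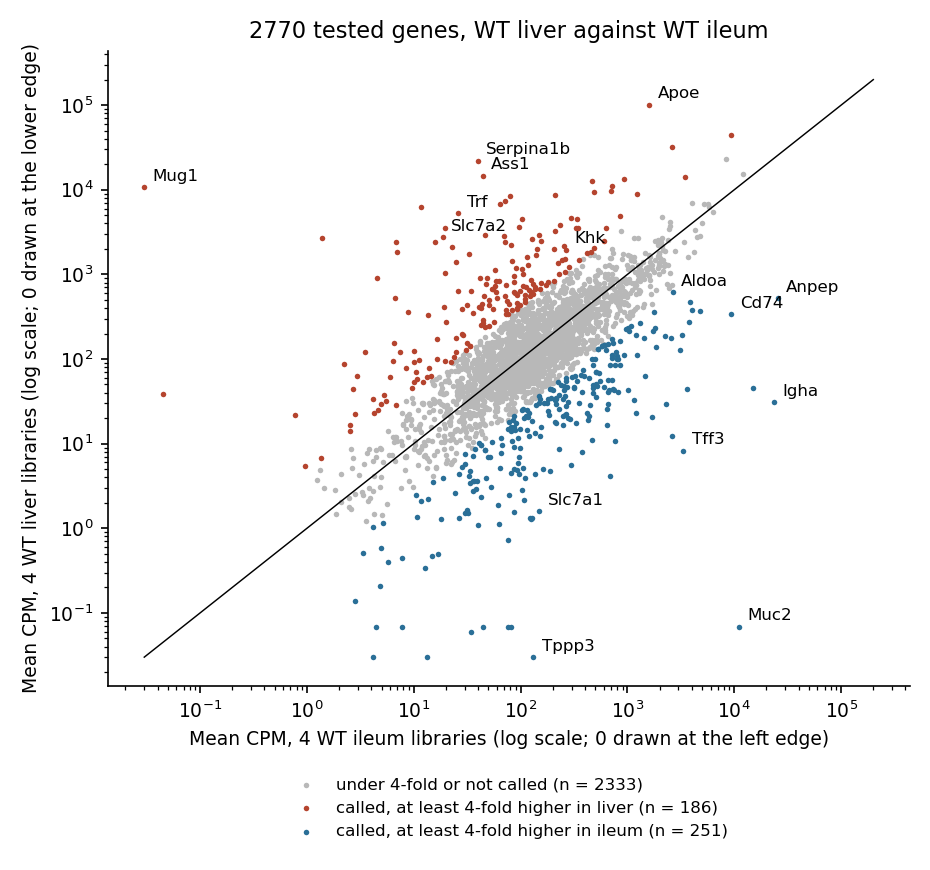
Mean level of each of the 2770 tested genes in 4 WT ileum libraries (horizontal axis) and 4 WT liver libraries (vertical axis), in CPM on log axes, with the line of equal levels. Red points mark the 186 genes called at least 4-fold higher in liver and blue points the 251 called at least 4-fold higher in ileum, while the cloud of grey points follows the line.

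Khk, the gene deleted elsewhere in the study, lies on chromosome 5 at 30921431 to 30931248 on the plus strand (coordinates as in the deposited tables, build GRCm38). Its levels were 1454, 1793, 2832 and 1785 CPM in liver and 391, 219, 247 and 206 CPM in ileum. Each liver library was higher than each ileum library, and liver library 3 and ileum library 1 were the highest of their organs. The means were 1966 ± 599 CPM and 266 ± 85.2 CPM (SD, n = 4 each). The log2 difference was 2.89 ± 0.27 (SE), a 7.40-fold higher level in liver, with an adjusted p of 8.74e-07. An exact two-sided permutation test gave p = 0.0286, the smallest that 35 splits of 8 libraries can give.

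The libraries differed in how their reads were concentrated. The 10 most abundant genes held 25.1 to 25.8% of shared-gene reads in liver and 14.1 to 15% in ileum. Apoe, which encodes a lipoprotein ligand that hepatocytes secrete, alone took 8.22 to 9.36% of shared-gene reads in liver. Per kb of gene length, Apoe, Apoa1, mt-Nd2 and mt-Tp were the most abundant in liver, at 47475, 35508, 21960.5 and 13589 CPM per kb. As mt-Tp is a mitochondrial transfer RNA gene, a value per kb of so short a gene is uncertain. In ileum Igkc, mt-Nd6, Igha, mt-Nd4 and mt-Nd2 were the most abundant, at 27848, 12289, 8882, 8727 and 8119 CPM per kb. The mitochondrial genes lie close together on both strands of a compact genome, and since it is not known whether reads were counted by strand, their split is uncertain.

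The largest difference toward liver was that of Mug1, which encodes murinoglobulin 1, a plasma protease inhibitor. It lies on chromosome 6 at 121838541 to 121889057, plus strand. Its levels in liver were 13242, 10830.2, 8453 and 10069 CPM, and no read fell on it in any ileum library. With 3 reads over the group as the limit of what a count of 0 allows, it was at least 80853-fold higher in liver (adjusted p 3.48e-10). Serpina1b encodes an alpha-1-antitrypsin, the main plasma inhibitor of neutrophil elastase. Its levels were 20501, 23318, 23011 and 21737 CPM in liver and 35.6, 50.5, 35.5 and 36.4 CPM in ileum, a log2 difference of 9.13 ± 0.24 (adjusted p 2.15e-11). Both belong to families of near-identical copies, so reads may have been split between or lost to other copies.

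The promoters of Serpina1b and Mug1 are printed because they stand before genes with very large differences toward liver, beside that of Mgam, a brush border enzyme higher in ileum. Each run is the 160 bases before the RefSeq start (build GRCm38.p6), 5′ to 3′ on the strand of the gene. Serpina1b lies on the minus strand, chr12:103738190-103738349. Its deposited gene runs from 103728156 to 103830373, so the 5′ end of the counted gene lies far from this RefSeq start, the nearest available. Mug1 lies on the plus strand, chr6:121838381-121838540. Mgam lies on the plus strand, chr6:40628671-40628830. Capitals mark the letters GTTAAT on either strand, the half-site of the hepatocyte nuclear factor HNF1, and TATAAA on either strand, the TATA box.
Serpina1b: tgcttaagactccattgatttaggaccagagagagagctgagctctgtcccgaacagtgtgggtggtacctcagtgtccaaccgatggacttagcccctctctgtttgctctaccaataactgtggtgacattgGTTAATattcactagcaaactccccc
Mug1: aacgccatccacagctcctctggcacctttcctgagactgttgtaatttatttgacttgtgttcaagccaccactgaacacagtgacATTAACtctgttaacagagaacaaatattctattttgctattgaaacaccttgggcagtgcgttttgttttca
Mgam: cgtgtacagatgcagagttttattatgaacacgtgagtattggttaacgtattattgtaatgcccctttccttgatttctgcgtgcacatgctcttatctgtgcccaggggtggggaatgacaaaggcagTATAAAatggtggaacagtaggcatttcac
The half-site began 26 bases before the RefSeq start of Serpina1b, and 73 bases before that of Mug1 on the opposite strand. Among the 8 protein-coding genes with the largest differences toward liver, it was found in an available window of Serpina1b and Mug1 only. As the half-site was also chosen after the data had been seen, these promoters do not stand for liver genes at large. Before Mgam the TATA box began at base -30. GTTAAT was found on either strand in 7.10% and TATAAA in 13.6% of all 32851 RefSeq windows that run from 250 bases before a start to 50 after it. A match is a description of these letters and not a bound site. Only 134 of the 186 genes at least 4-fold higher in liver and 190 of the 251 at least 4-fold higher in ileum had a window, which is under the 80% needed, so a comparison of motif shares between the sets is void.

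The other 6 of the 8 protein-coding genes with the largest differences toward liver were Aox3, Rdh7, Hpn, Ass1, Mbl2 and Trf. Aox3, an aldehyde oxidase, was at 3114, 2639.6, 2379.5 and 2685 CPM in liver and 1.11, 1.91, 0.714 and 1.81 CPM in ileum. Rdh7, a retinol dehydrogenase, was at 4580.2, 6253, 8088 and 5807 CPM in liver and 16.0, 2.87, 13.4 and 14.1 CPM in ileum. Hpn, the membrane serine protease hepsin, was at 1943, 2539.9, 2705 and 2349 CPM in liver and 3.16, 8.77, 7.14 and 8.34 CPM in ileum. These genes were chosen among those without overlap, and their log2 differences were 10.89 ± 0.30, 9.06 ± 0.49 and 8.43 ± 0.33 (SE), with adjusted p of 2.49e-11, 5.52e-09 and 3.04e-10.

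In the other direction the largest difference was that of Muc2, the gel-forming mucin of goblet cells, on chromosome 7 at 141690340 to 141754693, plus strand. Its levels in ileum were 8774, 10800.4, 11996 and 12774 CPM. A single read in liver library 1 was the only one in liver, which gave a ratio of 187826 with a 95% counting interval of 33711 to 7418728 (adjusted p 2.15e-11). Tppp3, a tubulin-binding protein, was at 217, 112, 118 and 80.1 CPM in ileum and had no read in liver, so that it was at least 745-fold higher in ileum (adjusted p 2.06e-07). Stum and Cacna1c had 1 read each in liver. Stum was at 79.8, 81.4, 84.6 and 80.7 CPM in ileum, and Cacna1c, the pore subunit of a voltage-gated calcium channel, was at 62.7, 75.9, 84.5 and 84.8 CPM in ileum. Their ratios were 1383 (counting interval 248 to 54634) and 1304 (234 to 51511).

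Tff3, the trefoil factor that goblet cells secrete with mucin, was at 1.10, 7.94, 12.9 and 11.1 CPM in liver and 4608, 2947, 3154 and 2620.1 CPM in ileum. Crip1, a cysteine-rich LIM protein, was at 5.50, 9.86, 19.7 and 13.7 CPM in liver and 4038, 2709.6, 2252 and 1545 CPM in ileum. Naip6, an inflammasome sensor gene with near-identical neighbours, was at 1.93, 3.56, 3.09 and 7.93 CPM in liver and 319.7, 676, 936 and 824 CPM in ileum. The log2 differences were -8.62 ± 0.52, -7.73 ± 0.44 and -7.37 ± 0.47 (adjusted p 1.39e-08, 9.06e-09 and 2.57e-08). Arg2, the mitochondrial arginase, was at 0.275, 1.10, 0.364 and 1.20 CPM in liver and 138, 48.3, 69.3 and 49.8 CPM in ileum, with ileum library 1 the highest, a log2 difference of -6.69 ± 0.54 (adjusted p 2.23e-07). Its exons share 20.0% of their bases with Vti1b on the other strand, so its reads are uncertain.

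**Figure D2:**
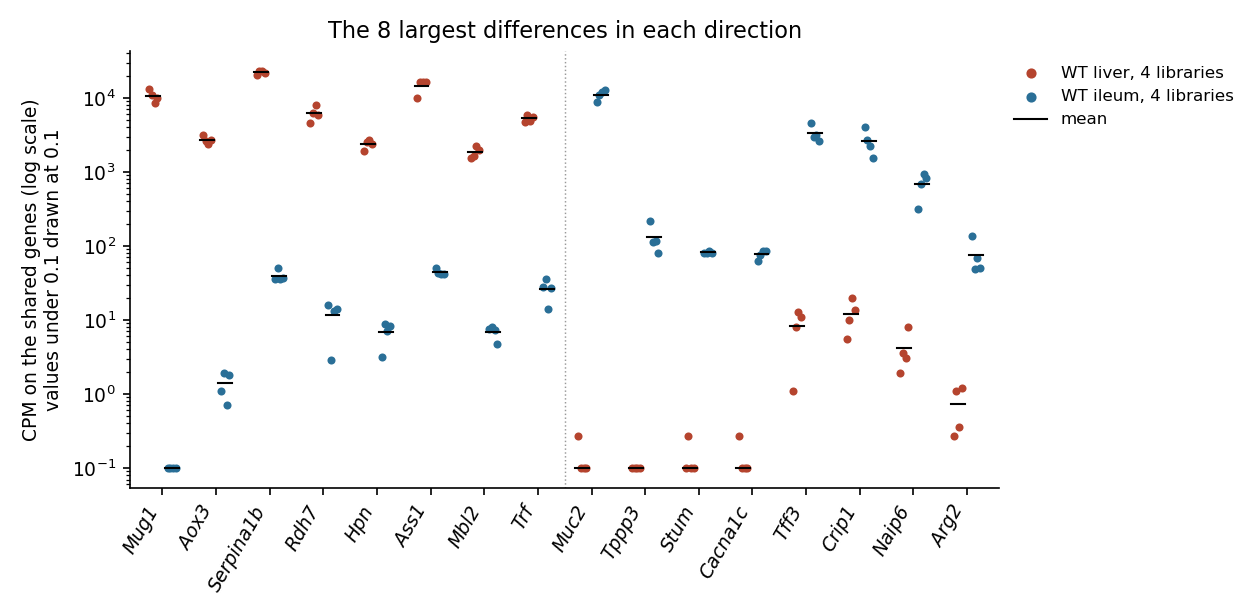
CPM on a log axis in each of 4 WT liver libraries (red) and 4 WT ileum libraries (blue) for the 8 protein-coding genes with the largest differences toward liver (left of the dotted line) and toward ileum (right), with bars at the means. Groups without overlap were required of these genes. Mug1 had no read in ileum and Tppp3 none in liver.

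The liver side was led by secreted proteins and amino acid enzymes. All 12 plasma protein genes among the shared genes, of 105 on the list, were higher in liver, with a median log2 difference of 6.97 against -0.12 over all genes tested. Together they took 17.7 to 18.7% of shared-gene reads in liver and 1.32 to 2.06% in ileum. Mbl2, a mannose-binding lectin of the complement system, was at 1543, 1634, 2258 and 1947 CPM in liver and 7.61, 7.97, 7.32 and 4.71 CPM in ileum, a log2 difference of 8.06 ± 0.26 (adjusted p 9.46e-11). Proc (the anticoagulant protein C), Apoc3 (an inhibitor of triglyceride clearance) and Apoe differed by 7.26, 6.68 and 5.99 on the log2 scale. Orm2, an acute phase protein with near-identical copies, had 1 read in ileum and a ratio of 877 (95% counting interval 157 to 34646). The smallest difference of the list was that of Cfb, complement factor B, at 1.88 ± 0.32 (adjusted p 2.57e-04), and 79.5% of its exon bases are shared with Gm20547 on the same strand.

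The apolipoproteins differed to unequal degrees. Apoa1, the main protein of high-density lipoprotein, was at 26579.5, 44591, 58892 and 45490.1 CPM in liver and 14626, 7475, 9348 and 5761 CPM in ileum. Apob, the scaffold of very-low-density lipoproteins and chylomicrons, was at 27316, 11351, 6534 and 11769 CPM in liver and 4314, 2794, 3685 and 3102 CPM in ileum. For neither did the groups overlap, although liver library 1 was the lowest liver library for Apoa1 and the highest for Apob. The log2 differences were 2.24 ± 0.31 and 2.04 ± 0.36 (adjusted p 3.90e-05 and 3.10e-04). Apoa4, a chylomicron apolipoprotein, was at 154, 183, 451 and 255 CPM in liver and 325, 59.4, 178 and 219 CPM in ileum. Its groups overlapped and it was not called (adjusted p 0.437), and 34.9% of its exon bases are shared with a gene on the other strand.

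Among 8 amino acid and urea cycle enzymes, 7 were higher in liver and 1 was not called, with a median of 4.53. Ass1, argininosuccinate synthase, was at 9832, 16277, 16317 and 16127 CPM in liver and 50.5, 42.6, 41.3 and 41.7 CPM in ileum, a log2 difference of 8.38 ± 0.27 (adjusted p 7.75e-11). Cps1, which makes the carbamoyl phosphate that enters the urea cycle, was at 14737, 13696, 10219 and 15519.8 CPM in liver and 585, 904, 1101 and 1155 CPM in ileum. The groups did not overlap for either, and Cps1 differed by less, 3.85 ± 0.25 (adjusted p 3.10e-08). Asl, the next enzyme after Ass1, differed by 5.21 ± 0.20, and Nags, which makes the activator of Cps1, by 1.18 ± 0.18 (adjusted p 2.96e-10 and 8.51e-05). Of the exon bases of Nags, 15.6% are shared with a gene on the other strand. Hpd and Tat, which act in turn in tyrosine breakdown, differed by 6.74 and 6.73, and Gpt, the alanine aminotransferase of cytosol, by 2.01. The gene not called was Sdsl, a serine dehydratase relative, at 68.0, 90.9, 86.4 and 74.2 CPM in liver and 88.7, 44.9, 47.0 and 46.9 CPM in ileum (adjusted p 0.121). Without ileum library 1, its highest ileum library, the log2 difference of Sdsl was 0.79 (adjusted p 0.00691).

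The 3 bile acid genes of hepatocytes among the shared genes, of 25 on the list, were all higher in liver. Baat, which joins bile acids to taurine or glycine, was at 999, 1301, 1914 and 1335 CPM in liver and 23.9, 29.6, 22.3 and 22.5 CPM in ileum. Amacr, a racemase of bile acid synthesis, was at 859, 927, 893 and 962 CPM in liver and 47.5, 51.8, 49.5 and 44.2 CPM in ileum. Abcc2, which pumps conjugates into bile, was at 2737, 1932, 1256 and 2152 CPM in liver and 146, 142, 329.6 and 203 CPM in ileum. None of the groups overlapped, and the log2 differences were 5.82 ± 0.25, 4.24 ± 0.17 and 3.30 ± 0.32 (adjusted p 7.44e-10, 4.49e-10 and 1.24e-06). None of the 12 ileal bile acid and cobalamin genes on the list was among the shared genes.

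Conjugating enzymes leaned the same way, with 8 of 9 higher in liver, 1 not called, and a median of 3.11. Ugt2b36, a glucuronosyltransferase, differed by 7.49 ± 0.27, Gstm1 by 5.36 ± 0.19 and Gstp1 by 4.27 ± 0.25 on the log2 scale (adjusted p 1.98e-10, 1.98e-10 and 1.22e-08), the last 2 being glutathione transferases. All are members of families of similar sequence. The 1 member not called was Gstm5, at 19.3, 32.9, 51.5 and 29.8 CPM in liver and 67.6, 55.1, 46.3 and 44.4 CPM in ileum. Gstm5 was called higher in ileum with the plain sums, with the length trend taken out and without liver library 3 (adjusted p 0.00590, 0.00646 and 0.0142). Of its exon bases, 13.9% are shared with a gene on the other strand. The only cytochrome P450 gene that the tables shared, Cyp4f16, was higher in ileum. It was at 5.78, 10.4, 14.4 and 13.7 CPM in liver and 514, 451, 424 and 463 CPM in ileum, a log2 difference of -5.37 ± 0.28 (adjusted p 4.75e-09).

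Genes of fat burning and fat making were mostly higher in liver. Of 10 genes of fatty acid oxidation, 8 were higher in liver, 1 was higher in ileum and 1 was not called, with a median of 1.66. Ppara, the fatty acid receptor that drives the genes of this pathway, was at 923, 592, 409 and 591 CPM in liver and 21.0, 29.2, 43.6 and 44.4 CPM in ileum, a log2 difference of 4.19 ± 0.32 (adjusted p 1.39e-07). Acaa2, the last enzyme of the mitochondrial spiral, was at 4282, 4802, 4951 and 4508 CPM in liver and 306, 282, 307 and 294 CPM in ileum, a log2 difference of 3.96 ± 0.16 (adjusted p 4.59e-10). In both genes the organs were far apart without overlap. Acsl5, an acyl-CoA synthetase, was at 1181, 1379, 1356 and 1479.9 CPM in liver and 2383, 1749.5, 1901 and 1797 CPM in ileum, without overlap. Its log2 difference was -0.54 ± 0.16 (adjusted p 0.0135), and this call was lost under 9 of the 17 alternatives tried, with an adjusted p of 0.0531 to 0.308 in them.

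Of 9 genes of fat and sterol synthesis, 6 were higher in liver and 3 were not called, with a median of 0.92. Thrsp, a regulator of lipogenesis, was at 1242, 1893, 3176 and 2223 CPM in liver and 36.6, 27.4, 14.5 and 12.9 CPM in ileum, and Gpam, which starts glycerolipid synthesis, was at 618, 322, 242 and 450.1 CPM in liver and 7.61, 22.2, 19.8 and 27.7 CPM in ileum. The groups of both stood far apart, with log2 differences of 6.54 ± 0.42 and 4.40 ± 0.40 (adjusted p 2.80e-08 and 8.56e-07). Acaca, the acetyl-CoA carboxylase of lipogenesis, and Lpin2, a phosphatidate phosphatase, differed by 1.31 ± 0.21 and 1.95 ± 0.23 (adjusted p 1.49e-04 and 7.81e-06).

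Of 14 sugar genes, 4 were higher in liver, 5 were higher in ileum and 5 were not called, which is near the shares over all genes tested (26.1% and 30.5%), and the median was -0.10. Aldoa, which splits fructose bisphosphate in glycolysis, was at 522, 610.3, 689 and 629.5 CPM in liver and 3978, 2201, 2309 and 2093 CPM in ileum. Each ileum library was higher than each liver library, the opposite order to Khk, with a log2 difference of -2.11 ± 0.22 (adjusted p 3.54e-06). Slc37a4, the glucose-6-phosphate carrier of gluconeogenesis, and Mpc2, a subunit of the mitochondrial pyruvate carrier, were higher in liver by 3.51 ± 0.22 and 1.99 ± 0.21 (adjusted p 1.80e-08 and 2.67e-06).

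Slc2a5, the fructose transporter GLUT5, was at 54.8, 60.5, 60.2 and 54.5 CPM in liver and 232, 121, 222 and 169 CPM in ileum, without overlap. Akr1b3, the aldose reductase that starts the making of fructose from glucose, was at 13.8, 34.0, 48.0 and 30.0 CPM in liver and 108, 121, 109.8 and 128 CPM in ileum, also without overlap. Their log2 differences were -1.69 ± 0.23 and -1.89 ± 0.31 (adjusted p 3.80e-05 and 1.90e-04). Tkt and Taldo1, both of the pentose phosphate pathway, were higher in ileum by log2 differences of -0.93 ± 0.17 and -1.17 ± 0.23 (adjusted p 3.44e-04 and 7.58e-04). Tpi1, the triose phosphate isomerase of glycolysis, was at 1405, 1744, 1635 and 1588 CPM in liver and 2318, 1399, 1487 and 1329.6 CPM in ileum. Its groups overlapped and it was not called (adjusted p 0.884).

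Iron genes were mostly higher in liver. Of 13 tested, of 59 on the list, 8 were higher in liver, 2 were higher in ileum and 3 were not called, with a median of 1.07. Ferritin is the shell that stores iron in cells, and its heavy and light chains are encoded by Fth1 and Ftl1. Their messages carry an iron-responsive element, a hairpin to which iron regulatory proteins bind when iron is scarce and block translation. The 5′ UTR stretch of 27 bases around the hairpin is printed because it sets these 2 apart from the other 11 iron genes, in which the element was not matched. It was read from GENCODE M21 transcripts, with the loop of 6 bases in capitals. It lies at chr19:9982733-9982759, plus strand, for Fth1 and at chr7:45459780-45459806, minus strand, for Ftl1, build GRCm38.
Fth1: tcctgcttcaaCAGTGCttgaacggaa
Ftl1: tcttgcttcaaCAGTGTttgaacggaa
A hairpin of this form occurred somewhere in a transcript of 1.01% of 21901 protein-coding genes.

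The 2 ferritin chains differed between the organs to unequal degrees. Fth1 was at 6426, 7608, 6909 and 7281 CPM in liver and 4802, 3921, 3872 and 3396 CPM in ileum. Ftl1 was at 7400.3, 9429, 9174 and 9429.5 CPM in liver and 1535, 1235, 1097 and 1058 CPM in ileum. Liver was higher without overlap in both, by a log2 difference of 0.82 ± 0.16 for the heavy chain and 2.85 ± 0.19 for the light chain (adjusted p 8.80e-04 and 3.41e-08). Per kb of gene length, Fth1 and Ftl1 were at 8148 and 6611 CPM per kb in liver and at 4616 and 919 CPM per kb in ileum. Ftl1 has copies elsewhere in the genome, and 26.5% of its exon bases are shared with a gene on the other strand.

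Ncoa4, the receptor that brings ferritin to the lysosome, was at 409.8, 315, 276 and 353 CPM in liver and 76.7, 65.5, 65.4 and 84.6 CPM in ileum. Ireb2, one of the iron regulatory proteins, was at 582, 388, 368 and 386 CPM in liver and 219, 134, 184 and 175 CPM in ileum. Both were higher in liver without overlap, by 2.21 ± 0.20 and 1.27 ± 0.22 (adjusted p 7.13e-07 and 2.35e-04). Trf, the plasma iron carrier transferrin, was at 4715, 5956, 4939 and 5464 CPM in liver and 28.0, 36.0, 13.9 and 26.8 CPM in ileum, a log2 difference of 7.65 ± 0.31 (adjusted p 4.47e-10), although 63.5% of its exon bases are shared with Gm20425 on the same strand. Hebp1, a haem-binding protein, was at 709, 1049, 1452 and 977 CPM in liver and 16.2, 28.0, 13.2 and 20.5 CPM in ileum, a log2 difference of 5.74 ± 0.31 (adjusted p 6.28e-09).

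Of the haem breakdown pair, Blvrb, a biliverdin reductase, was higher in liver by 3.68 ± 0.24 (adjusted p 2.93e-08). Blvra, the main biliverdin reductase of the adult, was at 34.1, 51.8, 69.7 and 56.9 CPM in liver and 71.8, 73.8, 74.5 and 73.2 CPM in ileum. Its groups did not overlap, yet it was not called (log2 difference -0.46 ± 0.23, adjusted p 0.109). Blvra was called higher in ileum with the plain sums of the shared genes and with the length trend taken out (adjusted p 0.00556 and 0.0181). Slc48a1, which moves haem out of lysosomes, was higher in liver by 1.07 ± 0.17 (adjusted p 1.57e-04). The 2 genes higher in ileum belong to the signalling that sets hepcidin, the iron hormone of liver. Neo1, neogenin, was at 98.5, 51.8, 20.7 and 48.1 CPM in liver and 233, 282, 288 and 256 CPM in ileum, and Smad4, the shared Smad of bone morphogenetic protein signalling, was at 166, 123, 125 and 133 CPM in liver and 203, 238, 253 and 253 CPM in ileum. Neither had overlapping groups, and the log2 differences were -2.28 ± 0.36 and -0.79 ± 0.18 (adjusted p 1.36e-04 and 0.00247).

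**Figure D3:**
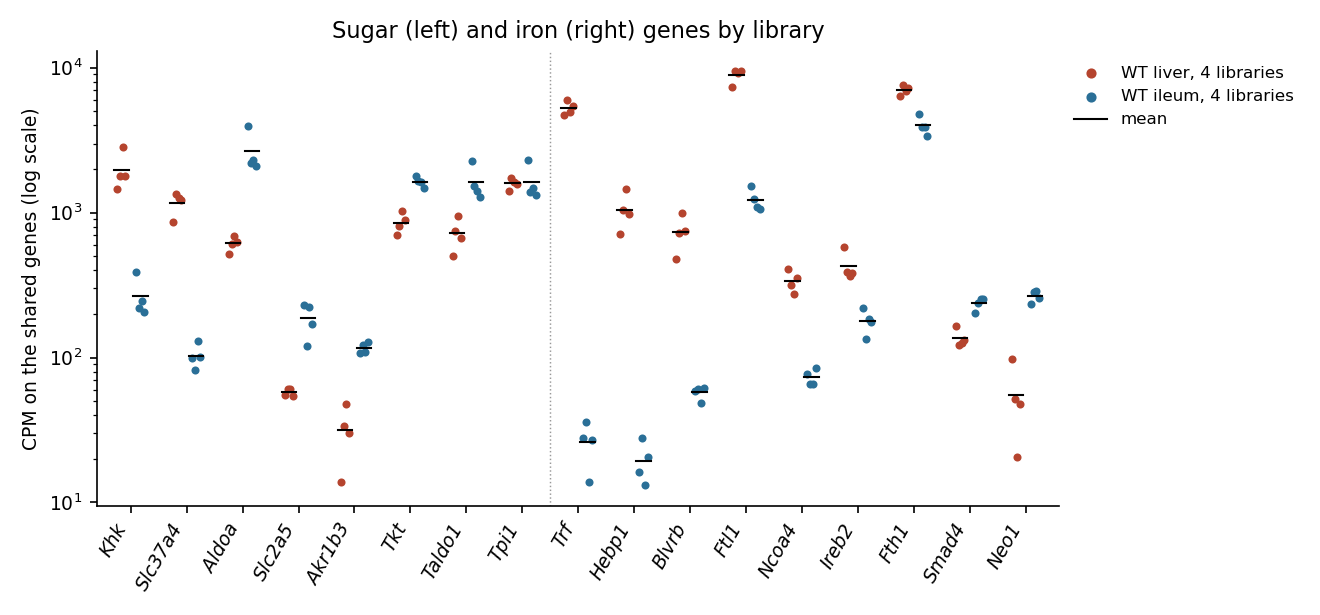
CPM on a log axis in each of 4 WT liver libraries (red) and 4 WT ileum libraries (blue) for 8 sugar genes (left of the dotted line) and 9 iron genes (right), with bars at the means. Khk and Aldoa lie in opposite order between the organs, and Ftl1 is further apart than Fth1.

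On the ileum side, the brush border gene Anpep stood out by its level. Anpep, the aminopeptidase N that trims peptides at the surface of absorptive cells, lies on chromosome 7 at 79821803 to 79861059, minus strand. It was at 671, 525, 348 and 559 CPM in liver and 26966, 24999, 27295 and 23353 CPM in ileum. Mgam, the maltase-glucoamylase of starch digestion whose promoter is printed above, was at 529, 220.4, 95.7 and 261 CPM in liver and 3073, 3697, 4339.8 and 3914 CPM in ileum. The organs did not overlap, and the log2 differences were -5.61 ± 0.24 and -3.76 ± 0.41 (adjusted p 7.44e-10 and 4.55e-06). Only 3 of the 37 genes on this list were shared. The third, Mme, neprilysin, was at 260.1, 149.8, 179 and 174 CPM in liver and 209, 177, 235 and 276 CPM in ileum, with overlapping groups (adjusted p 0.389).

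Of 8 genes of enterocyte uptake and lipoprotein assembly, 4 were higher in ileum, 3 were higher in liver and 1 was not called. Besides Slc2a5, those higher in ileum were Slc3a1 and Slc3a2, the heavy subunits of amino acid exchangers, and Tm6sf2, which acts in lipoprotein lipidation. Their log2 differences were -1.82 ± 0.19, -1.50 ± 0.16 and -2.31 ± 0.21 (adjusted p 2.68e-06, 3.30e-06 and 8.83e-07), and 26.5% of the exon bases of Slc3a1 are shared with Prepl on the other strand. Those higher in liver were Apoa1, Apob and Creb3l3, a transcription factor of fasting lipid metabolism, which differed by 3.09 ± 0.21 (adjusted p 5.61e-08).

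All 3 goblet cell genes among the shared genes, of 21 on the list, were higher in ileum. Besides Muc2 and Tff3 the third was Sytl2, a vesicle-docking protein, at 1.65, 0, 0.910 and 2.64 CPM in liver and 101, 101, 160.2 and 141 CPM in ileum. Of 49 genes on the list of crypt stem cells and proliferation, only Top2a and Ccnd2 were shared. Top2a, a topoisomerase of dividing cells, was at 2.75, 9.86, 5.46 and 13.7 CPM in liver and 235, 398, 418 and 441 CPM in ileum, and Ccnd2, a cyclin of the entry into division, was at 26.4, 18.6, 13.6 and 26.7 CPM in liver and 411, 409.6, 419 and 504 CPM in ileum. The 3 genes had no overlapping groups, with log2 differences of -6.57 ± 0.49, -5.55 ± 0.42 and -4.36 ± 0.26 (adjusted p 1.20e-07, 1.33e-07 and 1.17e-08). The 39 Paneth cell genes, 25 enteroendocrine and tuft cell genes and 32 T cell genes on the lists had no member among the shared genes, so these cell types could not be looked at here.

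The immunoglobulin genes Igha and Igkc were far higher in ileum. Igha, the heavy chain of immunoglobulin A, was at 22.6, 19.4, 29.7 and 52.1 CPM in liver and 21748, 26545, 19870.5 and 26623 CPM in ileum. Igkc, the kappa light chain, was at 20.4, 24.6, 70.4 and 67.3 CPM in liver and 14352, 15037, 12833 and 17039 CPM in ileum. The 2 together took 3.69 to 5.33% of shared-gene reads in ileum and 0.00385 to 0.0105% in liver, and their log2 differences were -9.58 ± 0.38 and -8.33 ± 0.46 (adjusted p 3.61e-10 and 6.83e-09). No other gene of the 30 on the B and plasma cell list was shared.

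MHC class II presentation shows peptides to helper T cells. All 6 of its genes among the shared genes, of 11 on the list, were higher in ileum, with a median of -4.27. Cd74, the invariant chain, was at 273, 301, 336 and 451 CPM in liver and 9149, 10499, 8455 and 9432 CPM in ileum. H2-Aa was at 81.2, 113, 149 and 173 CPM in liver and 3059, 3405, 2982 and 3089 CPM in ileum, and H2-Ab1, its partner chain, at 69.4, 139.9, 343 and 216 CPM in liver and 3279, 3561, 3046 and 3068 CPM in ileum. The organs stood apart in all 8 libraries, with log2 differences of -4.78 ± 0.22, -4.60 ± 0.25 and -4.07 ± 0.40 (adjusted p 9.81e-10, 5.64e-09 and 1.42e-06). H2-Eb1, H2-DMb1 and Ctss, the protease that trims the invariant chain, differed by -3.77, -4.48 and -2.66.

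The complement genes C1qa, C1qb and C1qc, which macrophages of both organs make, were not called with the main settings. C1qb was called higher in liver with the implied totals, without liver library 1 and without both libraries of number 1 (adjusted p 0.0460, 0.0132 and 0.0150). C1qc was at 129.9, 169, 188 and 201 CPM in liver and 116, 210.0, 172 and 195 CPM in ileum, with a log2 difference of -0.01 ± 0.23 (adjusted p 0.97). The other 5 of 8 genes of liver macrophages, endothelium and stellate cells were higher in liver. The largest by level was Nr1h3, the oxysterol receptor LXR alpha, at 2.17 ± 0.19 (adjusted p 4.39e-07). Kdr and Flt4, receptors for vascular growth factors, differed by 1.22 ± 0.31 and 1.03 ± 0.34 with overlapping groups (adjusted p 0.00402 and 0.0196), and both calls were lost with the plain sums of the shared genes (adjusted p 0.0544 and 0.186), where 2 of the 8 genes of the list were called higher in liver. The call of Flt4 was also lost with the replicate block (adjusted p 0.0521) and without ileum library 3 (adjusted p 0.0546). The markers Clec4f, Stab2 and Lyve1 were not among the shared genes.

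Interferon-response genes were mostly higher in ileum, 7 of 9, with the other 2 higher in liver and a median of -0.97. Over all genes tested, 30.5% were higher in ileum and 26.1% in liver. Those of the list higher in ileum numbered 6 with RLE scaling, the implied totals, DESeq2 or limma. They also numbered 6 without liver library 1, 2 or 4, without any 1 ileum library, or without both libraries of number 1. The median ran from -1.38 with the plain sums to -0.58 with limma. Ifi27l2b was at 16.0, 21.4, 25.7 and 28.1 CPM in liver and 517, 346, 376 and 424 CPM in ileum, a log2 difference of -4.18 ± 0.25 (adjusted p 1.17e-08). Parp14, an ADP-ribosyltransferase induced by interferon, was at 132, 118, 91.0 and 129.5 CPM in liver and 308, 435, 319 and 382 CPM in ileum. The organs did not overlap for either, and Parp14 differed by -1.62 ± 0.20 (adjusted p 1.44e-05). The 2 higher in liver were Apol9b and Ifi27, at 4.60 ± 0.28 and 1.75 ± 0.23 (adjusted p 1.60e-08 and 3.09e-05).

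The proteasome degrades tagged proteins. Of 20 subunit genes, 7 were higher in liver, 3 were higher in ileum and 10 were not called. That is 50% called, against 56.7% of all genes tested (26.1% higher in liver and 30.5% in ileum). Those higher in liver numbered 2 with the plain sums and 14 with the implied totals or without liver library 1. The 3 higher in ileum were those of the immunoproteasome, whose peptides suit MHC class I. Psmb8 was at 43.8, 86.0, 168 and 99.0 CPM in liver and 467, 598, 359 and 420.3 CPM in ileum, Psmb9 at 51.7, 62.4, 92.4 and 93.0 CPM in liver and 363, 516, 285 and 359 CPM in ileum, and Psmb10 at 116, 173, 206 and 197 CPM in liver and 926, 834, 576 and 559 CPM in ileum. None of the 3 overlapped between organs, and the log2 differences were -2.21 ± 0.34, -2.34 ± 0.26 and -2.06 ± 0.24 (adjusted p 9.75e-05, 4.72e-06 and 7.87e-06). Psmb8 and Psmb9 also count among the 7 interferon-response genes.

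The standard subunits that Psmb8 and Psmb9 replace are Psmb5 and Psmb6. Psmb5 was at 318, 472, 634 and 449.8 CPM in liver and 288, 199.7, 169 and 158 CPM in ileum, and Psmb6 at 444, 574, 919.9 and 569 CPM in liver and 395, 308, 280.0 and 265 CPM in ileum. Both were higher in liver without overlap, by 1.20 ± 0.25 and 1.01 ± 0.23 (adjusted p 0.00111 and 0.0024). The other 5 genes higher in liver, Psma6, Psmc2, Psmc4, Psmd4 and Psmd8, are not catalytic and differed by log2 values of 0.53, 0.53, 0.66, 0.81 and 0.65. All 5 calls were lost with the plain sums (adjusted p 0.0825 to 0.577). Those of Psma6 and Psmc2 were also lost with the replicate block (adjusted p 0.108 and 0.0614), and that of Psma6 without liver library 3 or 4 or ileum library 2, 3 or 4 (adjusted p 0.0599 to 0.098). The 5 catalytic subunits described kept their direction and their call under the 17 alternatives tried. Exon bases are shared with other genes for Psmb8 (14.7%) and Psmb5 (12.1%).

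Transporters were found on both sides. Of 35 solute carriers, 12 were higher in liver, 18 were higher in ileum and 5 were not called. The share called was 85.7%, against 56.7% over all genes tested. Slc7a1 and Slc7a2 both carry cationic amino acids. Slc7a1 was at 2.48, 1.64, 0.546 and 1.68 CPM in liver and 105, 159.8, 167 and 165 CPM in ileum, and Slc7a2 was at 3279.9, 2887, 1666 and 3103 CPM in liver and 16.2, 18.2, 23.0 and 17.6 CPM in ileum. The pair lay in opposite order without overlap, with log2 differences of -6.60 ± 0.38 and 7.19 ± 0.28 (adjusted p 9.06e-09 and 3.48e-10). Slc25a4 and Slc25a5, mitochondrial exchangers of ADP and ATP, were both higher in ileum but to unequal degrees, -3.97 ± 0.34 and -1.19 ± 0.15 (adjusted p 4.15e-07 and 1.87e-05).

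Slc1a2, a glutamate transporter, was higher in liver by 7.64 ± 0.53 (adjusted p 6.04e-08). Slc12a2, the sodium, potassium and chloride cotransporter of secreting epithelia, and Slc38a1, a glutamine transporter, were higher in ileum by -3.60 ± 0.31 and -5.01 ± 0.29 (adjusted p 4.05e-07 and 1.18e-08). Of 6 ABC transporters, 4 were higher in liver and 2 were higher in ileum. Abcb1a, the drug efflux pump P-glycoprotein, was at 25.3, 18.3, 12.9 and 26.2 CPM in liver and 1012, 1351, 2601 and 1855 CPM in ileum, a log2 difference of -6.37 ± 0.36 (adjusted p 9.28e-09). Abca1, which loads cholesterol onto Apoa1, was higher in liver by 3.21 ± 0.42 (adjusted p 2.76e-05).

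Of 8 genes on the list of keratins, cadherins and junctions, 6 were higher in ileum and 2 were higher in liver. Cdh2, N-cadherin, was at 441, 313, 298 and 401 CPM in liver and 7.24, 9.08, 6.79 and 12.1 CPM in ileum, and Gjb1, the gap junction protein connexin 32, was at 2378, 3143, 3521 and 2781 CPM in liver and 129.9, 165, 159 and 134 CPM in ileum. These 2 were the ones higher in liver, by 5.36 ± 0.27 and 4.33 ± 0.20 (adjusted p 2.86e-09 and 1.08e-09). Lgals3, a galectin, Dsp, the desmosome protein desmoplakin, and Cldn3, a claudin of tight junctions, were higher in ileum, by -6.29 ± 0.42, -2.15 ± 0.32 and -1.67 ± 0.20 (adjusted p 4.23e-08, 8.63e-05 and 1.12e-05). Of 8 collagens, laminins and integrins, 6 were higher in ileum, 1 was higher in liver and 1 was not called. Over all genes tested, 30.5% were higher in ileum and 26.1% in liver. Those of the list higher in ileum numbered 5 with the implied totals or the replicate block. They also numbered 5 without liver library 1, 3 or 4 or ileum library 2, 3 or 4, and 4 of 7 with limma. With the main settings they include Lamc1, a laminin chain, and Nid1, the nidogen that links laminin to collagen, at -1.91 ± 0.28 and -2.46 ± 0.29 (adjusted p 7.90e-05 and 8.00e-06).

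**Figure D4:**
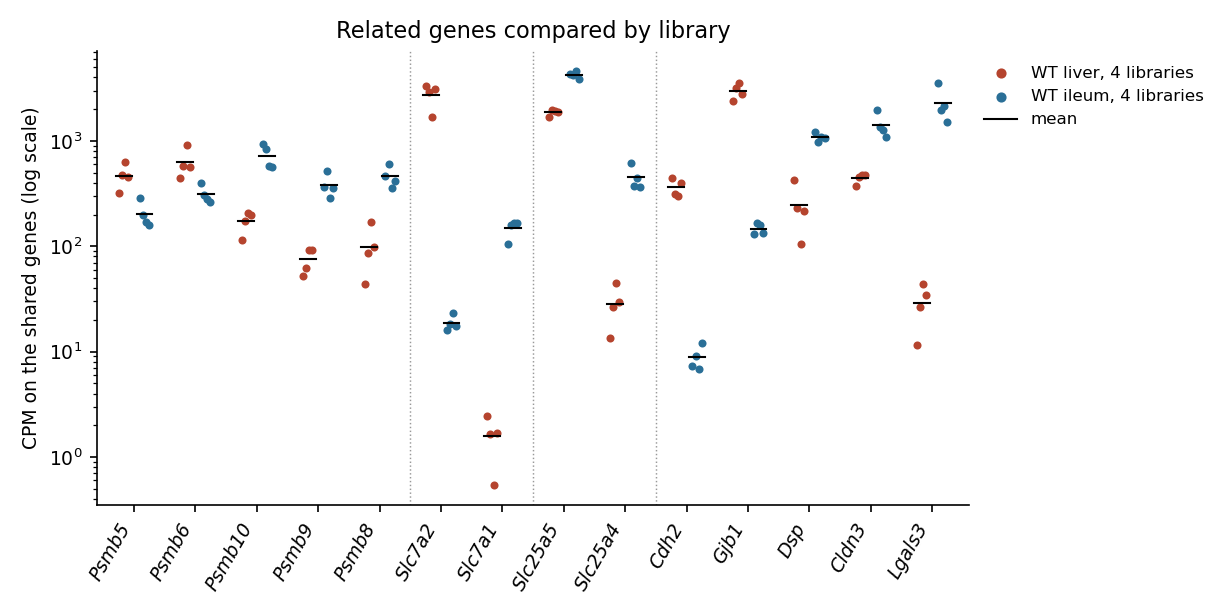
CPM on a log axis in each of 4 WT liver libraries (red) and 4 WT ileum libraries (blue) for 5 catalytic proteasome subunits, a pair of cationic amino acid carriers, a pair of ADP and ATP exchangers and 5 genes of the junction list, separated by dotted lines, with bars at the means. Psmb5 and Psmb6 are higher in liver while Psmb8, Psmb9 and Psmb10 are higher in ileum, and Slc7a1 and Slc7a2 lie in opposite order.

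Transcription factors of cell identity were found on both sides, 3 of 7 in each direction and 1 not called. The share called was 85.7%, against 56.7% over all genes tested. Ppara and Creb3l3, given above, were among those higher in liver. Grhl2, a factor of epithelial barriers, had 1 read in liver and was at 40.7, 41.4, 47.5 and 49.5 CPM in ileum, a ratio of 758 (95% counting interval 136 to 29959). Ppargc1a, a coactivator of mitochondrial genes, was higher in ileum by a log2 difference of -1.50 ± 0.25 (adjusted p 1.84e-04). Of 5 clock genes, Rora and Hlf were higher in liver, by 2.80 ± 0.36 and 2.57 ± 0.33 (adjusted p 2.06e-05 and 2.33e-05), and 3 were not called. The share of clock genes called was 40%, below the 56.7% of all genes tested. Of 3 smooth muscle genes only Ckb, the brain-type creatine kinase, was called, higher in ileum at -4.63 ± 0.31 (adjusted p 3.42e-08). That is 33.3% called, against 56.7% of all genes tested. The median of the 3 was 0.32, toward liver, and 2 were called higher in liver with the implied totals. The list thus has no shared direction.

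Of 76 cytosolic ribosomal protein genes, 47 were higher in ileum, 1 was higher in liver and 28 were not called, with a median of -0.56. They took 4.66 to 6.86% of shared-gene reads in liver and 10.1 to 12.1% in ileum. The number higher in ileum ran from 12 with limma on log2(FPKM + 1) to 72 with the plain sums over the alternatives tried, while the median stayed below 0 in each. It was 22, 17 and 19 without liver library 1, 2 or 4, and 29 with the replicate block. Rpl21, Rps12 and Rpl41 had the largest differences toward ileum, -1.70 ± 0.27, -1.62 ± 0.19 and -1.25 ± 0.34 (adjusted p 1.47e-04, 8.49e-06 and 0.00734). Rps27l, which encodes a variant of a ribosomal protein, was the 1 gene higher in liver, at 490.4, 649, 799 and 653 CPM in liver and 485, 349, 299 and 281 CPM in ileum (log2 difference 0.87 ± 0.22, adjusted p 0.00379). Ribosomal protein genes have many processed copies in the genome, so their reads are uncertain.

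Of 68 respiratory chain genes, 18 were higher in liver, near the share over all genes tested (26.1%), 2 were higher in ileum and 48 were not called, with a median of 0.29. The number higher in liver was 31 without liver library 1, 38 without ileum library 1, 10 without ileum library 3, 11 without ileum library 4 and 52 without both libraries of number 1. With the plain sums of the shared genes 8 were higher in liver and 17 were higher in ileum, and the median turned to -0.09, so the list has no direction that holds under every scaling. The same setting took the mitochondrial ribosomal genes from 19 to 8 of 45 higher in liver, and they numbered 32 without liver library 1 and 29 without ileum library 1. With the main settings 46.7% of these 45 genes were called in either direction, against 56.7% of all genes tested. Ndufa4, a subunit bound to cytochrome oxidase, was at 1079, 1083, 1222 and 1182 CPM in liver and 396, 407, 269 and 246 CPM in ileum, a log2 difference of 1.79 ± 0.20 (adjusted p 5.19e-06). The 2 higher in ileum were Cox7a1, the cytochrome oxidase subunit of muscle, at 2.48, 6.02, 6.19 and 5.53 CPM in liver and 164, 59.6, 67.9 and 54.2 CPM in ileum, and Cycs, cytochrome c, at 405, 432, 499 and 427 CPM in liver and 1383, 874, 744 and 719 CPM in ileum. Their groups did not overlap (log2 differences -4.07 ± 0.43 and -1.08 ± 0.22, adjusted p 3.58e-06 and 8.88e-04).

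**Figure D5:**
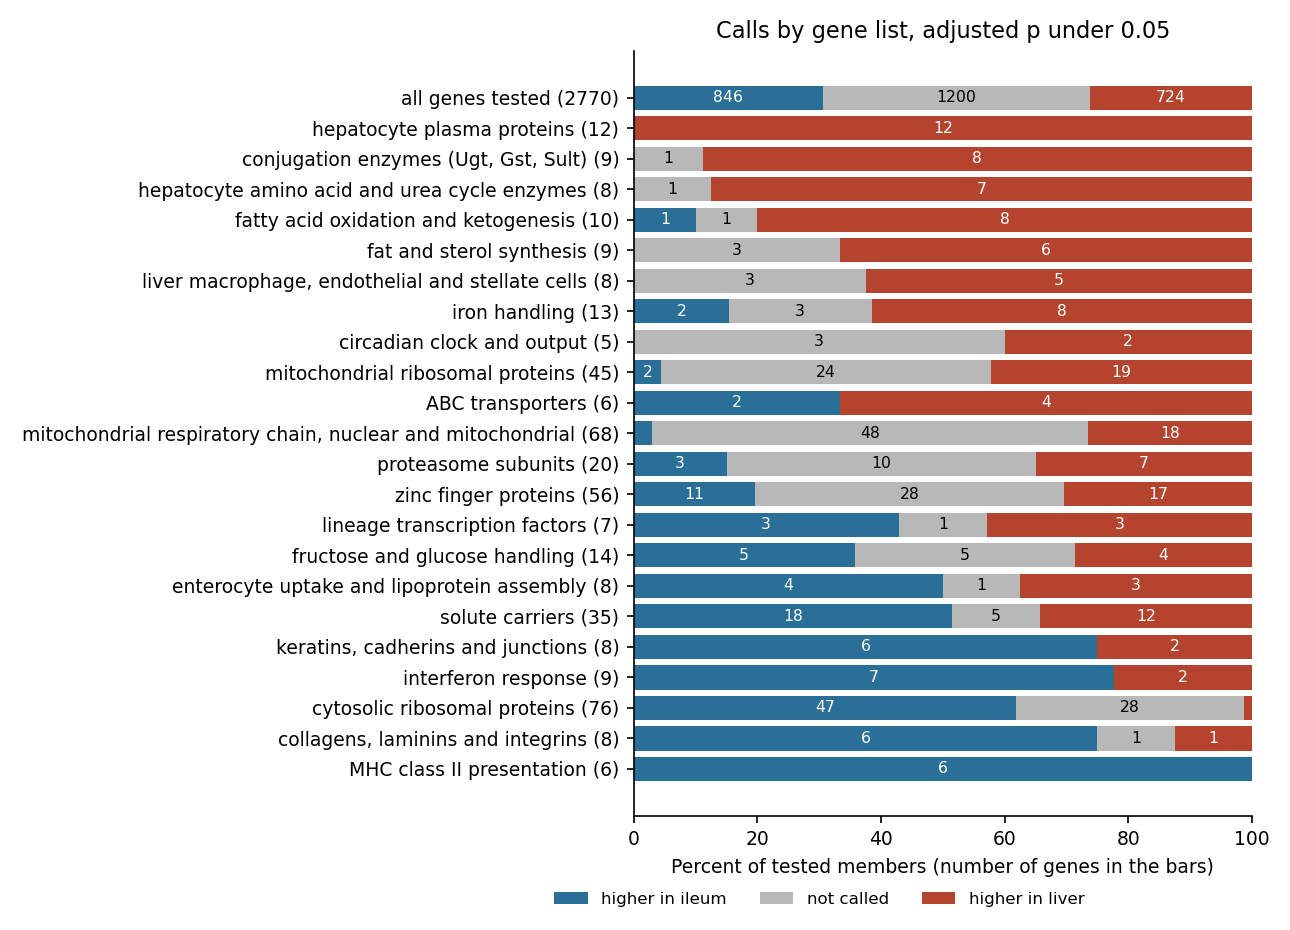
Percent of the tested members of each list of at least 5 genes that were higher in ileum (blue), not called (grey) or higher in liver (red), with the number of genes in the bars and the number tested in parentheses. The top bar gives all 2770 genes, of which 846 were higher in ileum and 724 in liver, and the lists run from plasma proteins, all 12 higher in liver, to MHC class II presentation, all 6 higher in ileum.

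At the other end, the protein-coding genes with the smallest differences among those with at least 100 CPM in both organs were Cdc42bpa, Trip12, Ppp1ca, Cox5a, Ehmt1, Nop53, Cdk8 and Eea1. Ppp1ca, a catalytic subunit of protein phosphatase 1, was at 429, 761, 1047 and 645 CPM in liver and 713, 761, 699 and 704 CPM in ileum. Trip12, a ubiquitin ligase, was at 624, 378, 268 and 374 CPM in liver and 354, 383, 445 and 463 CPM in ileum. In both genes the ileum values lay within the range of the liver values, and the means were nearly equal while the liver libraries spread widely. The SE of the log2 difference was 0.23 for Ppp1ca, 0.24 for Trip12 and 0.33 for Cdc42bpa. Differences of that size, and some larger ones, could therefore not be seen for them.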

How the data were processed

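Polyadenylated RNA of 4 WT liver and 4 WT ileum samples was sequenced, with RNA from a Qiagen RNeasy kit per the labels. The authors deposited a table per organ with raw read counts, a normalised signal, FPKM values, and a p-value of Khk KO against WT, per the file headers. The submitters' processing notes name HISAT2 2.0.5 and the builds GRCm38 and mm10. The counting tool, the annotation and the strandedness are not given in the sources used here. Every p-value in the 2 deposited tables was below 0.05. Columns were matched to samples by name, and no knockout column was used.

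The deposited counts of the genes held by both tables (matched by gene identifier) were fitted with edgeR 4.0.16 in R 4.3.3. TMM scaling on the shared genes, filterByExpr (minimum count 10) and the quasi-likelihood F test of liver against ileum were used, with Benjamini-Hochberg adjustment over 2770 genes and a threshold of 0.05. The SE given with a log2 difference was derived from that difference and its F statistic. The fit was tested on simulated data. DESeq2 1.42.0 and limma 3.58.1 served the alternatives, with a pseudocount of 1 for FPKM. The deposited signal and p-values were not used beyond finding the selection rule, and the library totals implied by FPKM served 1 alternative. Ratios for genes with 1 to 3 reads in an organ have exact 95% intervals that cover counting error only. Other steps used Python 3.11.15 with pandas 2.3.3, numpy 2.4.6, scipy 1.17.1 and matplotlib 3.10.9. Promoters are from RefSeq windows and hairpins and exon overlaps from GENCODE M21.

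The members and the 33 gene lists were chosen with earlier results of these data known. Named genes are Khk, the 8 protein-coding genes with the largest differences in each direction (mean of at least 50 CPM in the higher organ, no overlap), and up to 3 called members per direction of each list by level. The 8 with the smallest differences (at least 100 CPM in both organs) and the 5 most abundant per kb in each organ were added. Some genes of the rule are not reported here, and other members were named after their values had been seen. The HNF1 half-site was likewise chosen after the data had been seen. Planned motifs were HNF1, HNF4, CDX2, CEBP and the TATA box.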

Additional observations from a re-analysis of the deposited data

Results flagged for a closer look

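For each gene named in the text, the 4 libraries of each organ were examined for one that stood apart from the others, with a gap to its nearest neighbour that exceeded Dixon's 95% critical value as a share of the range of the group. This occurred in 26 of 314 groups examined. The rate of 1 in 20 by chance holds for independent groups of normally distributed values, while these groups share the same libraries. Groups with a single read against none exceed the critical value by construction. The count of 26 can therefore not be set against chance. No explanation of these values was tested.

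Ileum library 1 was apart in 11 genes. It was high for the mitochondrial genes mt-Nd2 (13426 CPM, against 6440.2 to 7165 in the other ileum libraries), mt-Nd4 (17619 against 9925 to 10436) and mt-Nd6 (10040.4 against 4862 to 5366). It was also high for Aldoa (3978 against 2093 to 2309), Tpi1 (2318 against 1330 to 1487), Cox7a1 (164 against 54.2 to 67.9), Anxa2 (5189 against 2868 to 3241) and Gpx1 (1066 against 542 to 619). It was high as well for Sdsl (88.7 against 44.9 to 47.0) and Ass1 (50.5 against 41.3 to 42.6), and low for Slc7a1 (105 against 160 to 167).

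Liver library 1 was low for Ass1 (9832 CPM, against 16127 to 16317 in the other liver libraries), Hpd (6996 against 8783 to 9106) and Ftl1 (7400.3 against 9174 to 9430). It was high for Ireb2 (582 against 368 to 388) and Slc12a2 (69.9 against 26.4 to 32.0). Liver library 3 was high for Rps12 (408 against 289 to 309) and Ugt2b36 (4532 against 3102 to 3232).

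Ileum library 2 was high for Serpina1b (50.5 CPM, against 35.5 to 36.4 in the other ileum libraries), ileum library 3 was low for Blvrb (48.9 against 59.2 to 61.3), and ileum library 4 was high for Ccnd2 (504 against 410 to 419). In 5 genes a single read in 1 library stood against none in the other 3. These were Muc2 and Cacna1c (0.275 CPM in liver library 1), Stum and Grhl2 (0.274 CPM in liver library 2) and Orm2 (0.181 CPM in ileum library 4).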

How the results depend on the processing

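The fit was repeated under 17 alternatives, 16 of them planned and 1, without both libraries of number 1, added after the data had been seen. Genes called higher in liver and in ileum, 724 and 846 with the main settings, numbered 813 and 769 with RLE scaling, 938 and 614 with the totals implied by FPKM, and 483 and 1253 with the plain sums of the shared genes. They numbered 842 and 808 with DESeq2, 932 and 597 with limma on log2(FPKM + 1), 727 and 855 without the filter on low counts, and 853 and 1074 with the length trend taken out. Leaving out 1 library gave 634 to 876 and 684 to 905, and leaving out both libraries of number 1 gave 947 and 995. Genes at least 4-fold higher in ileum, 251 with the main settings, numbered 113 with limma, and the cause was not tested. Those at least 4-fold higher in liver were 178 there against 186. Leaving out 1 library gave 188 to 208 of these for liver and 237 to 261 for ileum. All 186 genes at least 4-fold higher in liver remained so with RLE scaling and with the implied totals, and 137 with the plain sums. The log2 difference of Khk ran from 2.49 to 3.36 and kept its call under all 17. The deviations of libraries with the same number correlated at -0.42, 0.08, -0.36 and 0.08, and those of liver library 1 and ileum library 4 at 0.48. The libraries also differed in their length trend, so these values cannot tell whether the shared numbers pair the samples. With the replicate block 619 genes were higher in liver and 734 in ileum, 183 and 262 of them at least 4-fold, and the value of Khk was 2.90. Of the 2668 repeats for the 157 genes named in the text, 2621 kept direction and side of the threshold, 25 lost the call (Acsl5, Flt4, Kdr, Psma6, Psmc2, Psmc4, Psmd4 and Psmd8), 19 gained one and 3 gained one in the direction opposite to a value near 0 that was not called. The last were Tpi1 (0.34) and Cox5a (0.41) without both libraries of number 1, and Nop53 (-0.42) with the plain sums. The cause was not tested. The medians of the lineage factor, smooth muscle, zinc finger, clock and respiratory chain lists changed sign with the plain sums, and that of the sugar list with the implied totals, with limma, and without liver library 4 or both libraries of number 1. Leaving out that pair also turned the median of the lineage factors. Differences of genes with no or few reads in an organ are limited by depth, and 86 of the 2856 genes had too few reads to be tested.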

Other observations

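The genes below are outside the lists and were picked after their values had been seen, so their shared direction is no result. Over all genes tested, 26.1% were higher in liver and 30.5% in ileum. Gpx1, a glutathione peroxidase that removes hydrogen peroxide, was at 8181, 10609.7, 11472 and 8793 CPM in liver and 1066, 619, 542 and 561 CPM in ileum. Sod1, the cytosolic superoxide dismutase, was at 3086, 3549, 3895 and 3613 CPM in liver and 847, 584, 604 and 478 CPM in ileum, and Ccs, which loads it with copper, was at 521, 599.7, 635 and 642 CPM in liver and 85.6, 105, 87.3 and 76.7 CPM in ileum. None of these groups overlapped, with log2 differences of 3.81 ± 0.26, 2.49 ± 0.20 and 2.76 ± 0.18 (SE; adjusted p 4.28e-08, 2.26e-07 and 3.62e-08). Mgst1, a membrane glutathione transferase, differed by 4.76 ± 0.19 (adjusted p 3.61e-10). Alad and Urod, which act in haem synthesis, were also higher in liver, by 2.44 ± 0.19 and 2.13 ± 0.20 (adjusted p 1.41e-07 and 9.36e-07). Pcbd1 and Qdpr, which recycle the cofactor of phenylalanine hydroxylase, differed by 3.23 ± 0.19 and 2.61 ± 0.19 (adjusted p 1.22e-08 and 8.02e-08). Of the exon bases of Qdpr, 18.6% are shared with a gene on the other strand.

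Other genes picked in the same way were higher in ileum. Anxa2, an annexin that binds membranes and actin, was at 35.2, 36.7, 57.1 and 47.6 CPM in liver and 5189, 3241, 3206 and 2868 CPM in ileum, and S100a10, its light chain partner, was at 185, 265, 245 and 247 CPM in liver and 2779.6, 1806, 1435 and 1246 CPM in ileum. The log2 differences were -6.35 ± 0.28 and -2.95 ± 0.26, without overlap (adjusted p 8.54e-10 and 5.13e-07). Tmsb4x and Tmsb10, thymosins that hold actin monomers, differed by -3.39 ± 0.25 and -4.32 ± 0.32 (adjusted p 1.12e-07 and 1.12e-07). Iqgap1, an actin scaffold, differed by -3.97 ± 0.21, and Arpc1b, a subunit of the complex that branches actin, by -2.14 ± 0.20 (adjusted p 4.75e-09 and 9.01e-07). Of the exon bases of Arpc1b, 18.2% are shared with Pdap1 on the other strand. Ileum library 1 was the highest ileum library for Anxa2, S100a10, Tmsb4x and Tmsb10.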
